A study of Sus scrofa with 2 samples.

Results

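The features described here were the class I genes of the pig major histocompatibility complex (MHC), called SLA for swine leukocyte antigen, together with the light chain B2M and 5 genes of peptide supply and loading. They were taken by name. A feature belonged to the class I series if its symbol was SLA- or TMP-SLA- followed by a number or began with TMP-CH242-74M17, and B2M, TAP1, TAP2, TAPBP, PSMB8 and PSMB9 were added. This gave 24 of 27622 features, of which 13 belonged to the class I series, 2 were rows of B2M and 9 were rows of the peptide loading genes. A total of 18 carried the name as their symbol, and 6 carried another symbol, TAP for TAP1 and TAP2 and LMP2 for PSMB9. The symbol TAP does not separate TAP1 from TAP2, so those rows were assigned by reference gene name or gene description. The 3 clone-named features, TMP-CH242-74M17.4, TMP-CH242-74M17.5 and TMP-CH242-74M17.6, have no product named in the deposited table or in RefSeq, so they were in the series by symbol alone.

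RNA-seq was performed on stria vascularis (SV) dissected with the cochlear lateral wall of Rongchang pigs, with 1 library of genotype Mitf R/r (heterozygous) and 1 of genotype Mitf r/r (homozygous). The r allele is the recessive allele of Mitf of the albino, deaf pigs of this breed, carried on 1 or both chromosomes, so both animals had it and no R/R library was analysed here. MITF is the transcription factor that melanocytes need, and melanocytes form the intermediate cells of the SV. The stage is postnatal day 1 in the labels and embryonic day 85 in the paper, and no other treatment is named.

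With 1 library per genotype there were no replicates, so differences are between the libraries and not shown to be between genotypes, and no test was possible. In whole-tissue RNA, fewer cells of a type and less RNA per cell cannot be told apart. DCT, an enzyme of melanin synthesis and a melanocyte marker, stood at 171 RPKM in the heterozygous SV and 1.19 RPKM in the homozygous SV. The rows of MITF itself, which cannot separate its isoforms here, stood at 51.7 and 11.9 RPKM in the heterozygous SV and at 37.8 and 8.36 RPKM in the homozygous SV. The total of reads worked out from the values was 15829244 for the heterozygous SV and 14258672 for the homozygous SV, so that 1 read on a gene of 1 kb was worth 0.0632 and 0.0701 RPKM. RPKM is a level per length of the gene model and per library depth. Differences are given as the log2 ratio of RPKM, r/r over R/r, with 95% exact intervals from the reads, which cover counting error only.

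MHC class I molecules show peptides from inside the cell to CD8 T cells and to natural killer cells. The heavy chain comes from the SLA genes, pairs with B2M, and is loaded in the endoplasmic reticulum with peptides that proteasomes cut and that the TAP1 and TAP2 transporter carries in, while TAPBP (tapasin) holds the empty molecule at the transporter. The classical genes SLA-1, SLA-2 and SLA-3 are highly polymorphic and present peptides broadly, SLA-6, SLA-7 and SLA-8 are non-classical genes of low polymorphism, and the genes are similar enough in sequence that short reads can match more than one of them.

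The summed level of the class I series was close between the libraries, with a direction that changed with the unit and with single features, whereas some single features were far apart in either direction. The sum over the 12 class I features with reads was 756 RPKM in the heterozygous SV and 838 RPKM in the homozygous SV, a log2 ratio of 0.15 (0.10 to 0.19). Below that sum, SLA-5 and TMP-SLA-5 were lower in the homozygous SV and SLA-1 and TMP-CH242-74M17.6 were higher. B2M summed over its rows was 353 and 418 RPKM, and the peptide loading genes summed to 77.6 and 73.6 RPKM. TAP1, TAP2, PSMB8 and PSMB9 had low values in both SVs, but each was on 2 rows. How reads were divided between such rows is not given, so their levels may be understated.

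A ratio was compared for features above 0 in both libraries with at least 1 RPKM in at least one, which held for 18 of the 24. Of the rest, 3 were listed at 0 in both libraries and 3 had reads but stayed under 1 RPKM. Among the 18, 7 were at least 2-fold apart, of which 4 were lower and 3 higher in the homozygous SV, in all 38.9%. The background over all 16331 features compared was 3.99% at least 2-fold apart, 2.2% lower and 1.78% higher. Among the 2329 compared features that share their symbol with another compared feature, the share was 8.97%. With the whole 95% interval beyond 2-fold, 5 members remained, 3 lower and 2 higher, beside a background of 0.643%, 0.349% lower and 0.294% higher. The class I series held 6 of its 12 compared features at least 2-fold apart and B2M with the loading genes 1 of 6, the lower-expressed transporter gene TAP2. Those 6 class I features included all 3 clone-named ones, which were in the series by symbol alone. Some of the 6 were already in the paper's list of genes 2-fold apart. The members were chosen with earlier results of these data known, so 38.9% is not an unbiased share to set against 3.99%. The median log2 ratio of the 18 was 0.13, beside -0.02 over all features compared, with 11 above 0 and 7 below.

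**Figure D1:**
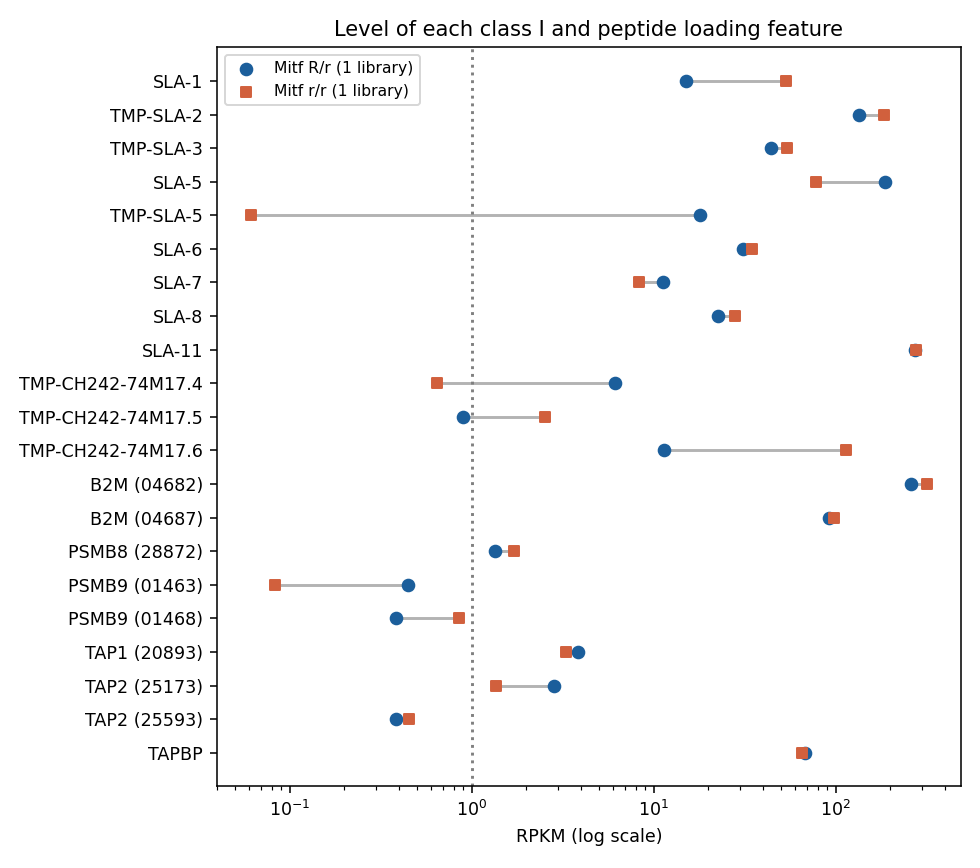
RPKM of each member with reads, on a log axis, in the Mitf R/r library (circles) and the Mitf r/r library (squares), joined by a line, with the minimum of 1 RPKM dotted; a number after a symbol is the end of the feature's Ensembl identifier. SLA-11 and the first row of B2M stood highest in both libraries, long lines join the values of TMP-SLA-5, TMP-CH242-74M17.4 and TMP-CH242-74M17.6, and the TAP1, TAP2, PSMB8 and PSMB9 rows lay near or below 4 RPKM in both libraries.

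The 3 classical features were all higher in the homozygous SV. SLA-1 (ENSSSCG00000001231) had 15.0 RPKM in the heterozygous SV and 53.3 RPKM in the homozygous SV, from 119 and 380 reads, a log2 ratio of 1.83 (1.53 to 2.14). TMP-SLA-2 (ENSSSCG00000030731) had 134 and 185 RPKM, a log2 ratio of 0.46 (0.35 to 0.58). TMP-SLA-3 (ENSSSCG00000001227) had 44.4 and 54.4 RPKM, a log2 ratio of 0.30 (0.18 to 0.41). Only SLA-1 among these passed 2-fold, and the other two had intervals above 0 but well inside that threshold. The gene models differed in length, at 500 bp for SLA-1, 513 bp for TMP-SLA-2 and 1733 bp for TMP-SLA-3, as far as the reads give it. The order of the classical levels was TMP-SLA-2, TMP-SLA-3 and SLA-1 in both SVs, and in the homozygous SV TMP-SLA-3 and SLA-1 were at nearly the same level. Together the classical features had 194 RPKM in the heterozygous SV and 293 RPKM in the homozygous SV, a log2 ratio of 0.60 (0.51 to 0.68).

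The features named SLA-5 differed in the opposite direction. SLA-5 encodes a class I heavy chain and is next to SLA-1 in the order of genes in RefSeq. There SLA-1 is also listed as another name of SLA-5, as it is of SLA-3. SLA-5 (ENSSSCG00000001229) had 187 RPKM in the heterozygous SV and 78.5 RPKM in the homozygous SV, from 4941 and 1869 reads, a log2 ratio of -1.25 (-1.33 to -1.17). TMP-SLA-5 (ENSSSCG00000030767) had 17.9 RPKM in the heterozygous SV and 0.0611 RPKM in the homozygous SV, where a single read was left beside 325. Its log2 ratio was -8.19 with an interval from -13.50 to -5.71, rank 2 from the lowest of the 16331 features compared. The pair summed to 205 and 78.6 RPKM, and most of the difference in RPKM lay in SLA-5, with -108 RPKM against -17.8 RPKM in TMP-SLA-5. SLA-5 went from 24.7% of the class I sum in the heterozygous SV to 9.36% in the homozygous SV, and the r/r library therefore had reads of SLA-5 but almost none of the second feature of that name.

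The non-classical features differed little. SLA-6 (ENSSSCG00000001398) had 31.0 and 34.8 RPKM, a log2 ratio of 0.17 (-0.01 to 0.34). SLA-7 (ENSSSCG00000024161) had 11.3 and 8.34 RPKM, a log2 ratio of -0.43 (-0.79 to -0.08). SLA-8 (ENSSSCG00000001396) had 22.6 and 27.9 RPKM, a log2 ratio of 0.31 (-0.01 to 0.62). None of them was 2-fold apart, and only the interval of SLA-7 left out 0. Their sum was 64.8 RPKM in the heterozygous SV and 71.0 RPKM in the homozygous SV, a log2 ratio of 0.13 (-0.02 to 0.28). RefSeq places SLA-8, SLA-7 and SLA-6 next to each other, away from the block with SLA-1, SLA-5, SLA-2, SLA-3, SLA-4 and SLA-11. The features at least 2-fold apart with an SLA name all belonged, by that name, to the block with SLA-1. The clone-named features, all of them at least 2-fold apart, were not assigned to a block.

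SLA-11 (ENSSSCG00000001341), a pseudogene in RefSeq, had the highest level of the series in both SVs. It had 275 RPKM in the heterozygous SV and 278 RPKM in the homozygous SV, from 3294 and 3003 reads, a log2 ratio of 0.02 (-0.05 to 0.09). It made up 36.3% of the class I sum in the heterozygous SV and 33.1% in the homozygous SV, more than any other feature in either library. TMP-SLA-4 (ENSSSCG00000030873), named after the other pseudogene of the series, was listed at 0 in both libraries, where 3 reads on a model of 1 kb would be 0.190 and 0.210 RPKM.

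All 3 clone-named features were at least 2-fold apart, 2 higher and 1 lower. TMP-CH242-74M17.6 (ENSSSCG00000030790) had 11.4 RPKM in the heterozygous SV and 115 RPKM in the homozygous SV, from 56 and 506 reads, a log2 ratio of 3.33 (2.93 to 3.75) and the 9th highest of all features compared. Its gene model was the shortest of the members, 309 bp as far as the reads give it, so its reads count for more RPKM than those of any other member. TMP-CH242-74M17.5 (ENSSSCG00000001228) had 0.902 and 2.53 RPKM from 17 and 43 reads, a log2 ratio of 1.49 (0.65 to 2.39). TMP-CH242-74M17.4 (ENSSSCG00000001397) went the other way, with 6.14 RPKM in the heterozygous SV and 0.647 RPKM in the homozygous SV, from 137 and 13 reads, a log2 ratio of -3.25 (-4.19 to -2.42) and rank 20 from the lowest. The share of the class I sum in TMP-CH242-74M17.6 was 1.51% in the heterozygous SV and 13.7% in the homozygous SV, more than that of SLA-5 there.

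**Figure D2:**
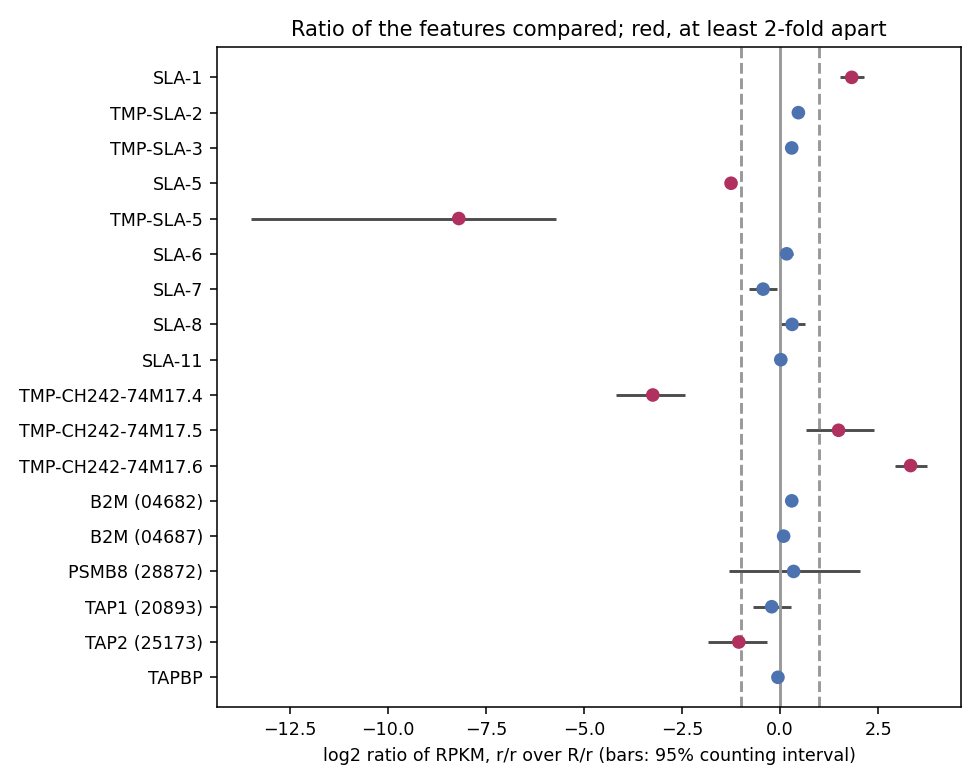
Log2 ratio of RPKM, r/r over R/r, of the 18 members compared, with 95% counting intervals as bars, 2-fold as dashed lines and the members at least 2-fold apart in red. The red points of the class I series lie on both sides, 3 lower and 3 higher, while those of B2M and the loading genes lie within 2-fold except TAP2 at -1.05.

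How reads that match several relatives were treated, and which SLA alleles the animals carried, is not given in the sources used here. For a single class I feature, a difference in the RNA of that gene and a difference in where the reads of its relatives were placed cannot be told apart, and sums are given for that reason. The RPKM sums are not free of placement either, since a read counts for more RPKM on a shorter model. Over the series, 8 features were higher by 217 RPKM in all and 4 were lower, with a summed difference of -135 RPKM, which leaves the net 82.1 RPKM. As shares of each library's class I sum, 22.1% of the sum lay in a different feature in the homozygous SV than in the heterozygous SV. The 3 features at least 2-fold lower summed to 211 and 79.2 RPKM, and the 3 at least 2-fold higher summed to 27.4 and 171 RPKM. The direction of both sums was fixed by how the features were picked. Those 6 together had 238 RPKM in the heterozygous SV and 250 RPKM in the homozygous SV, a log2 ratio of 0.07 (-0.01 to 0.15). That interval does not allow for the choice of features by their ratios. Counted in the smallest reads that give these values, the same 6 features were not balanced, with 5595 in the heterozygous library and 2812 in the homozygous one. That was a log2 ratio of -0.84 (-0.91 to -0.78) once scaled to the library totals, and true reads that are multiples could change it. The 6 features under 2-fold, with 518 and 588 RPKM, had a log2 ratio of 0.18 (0.13 to 0.24).

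**Figure D3:**
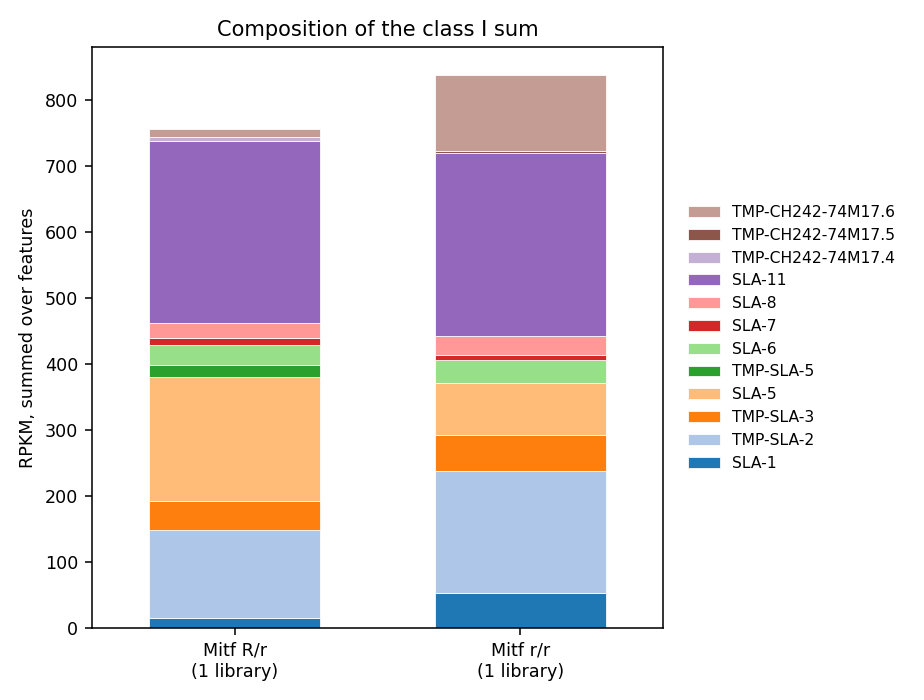
Summed RPKM of the class I series in each library, bars from 0, stacked by feature. The bars end at 756 and 838 RPKM, SLA-11 is the widest band in both, the band of SLA-5 is narrower and those of TMP-CH242-74M17.6 and SLA-1 are wider in the homozygous SV.

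The direction of the class I sum depended on single features and on the unit. Counted in reads and scaled to the library totals, the sum was 12070 reads in the heterozygous SV and 9356 reads in the homozygous SV. That was a log2 ratio of -0.22 (-0.26 to -0.18), the reverse of the RPKM sum. Those are the smallest reads that give the RPKM values. If the true reads of some features are multiples of them, this ratio could differ, also in direction, and its interval does not cover that. The models that were higher in the homozygous SV included the short ones of TMP-CH242-74M17.6 and SLA-1, and the long model of SLA-5 was lower. The longest class I model, that of TMP-SLA-3 at 1733 bp, was higher, however. All these lengths are as far as the reads give them. Without TMP-CH242-74M17.6 the RPKM sum was 745 and 723 RPKM, a log2 ratio of -0.04 (-0.09 to 0.00), and over the 9 features with an SLA name alone it was 738 and 720 RPKM, a log2 ratio of -0.03. Without SLA-5 it was 0.42 (0.37 to 0.47). The summed class I signal therefore had no direction that held across these sums, and all of them lay within 2-fold.

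**Figure D4:**
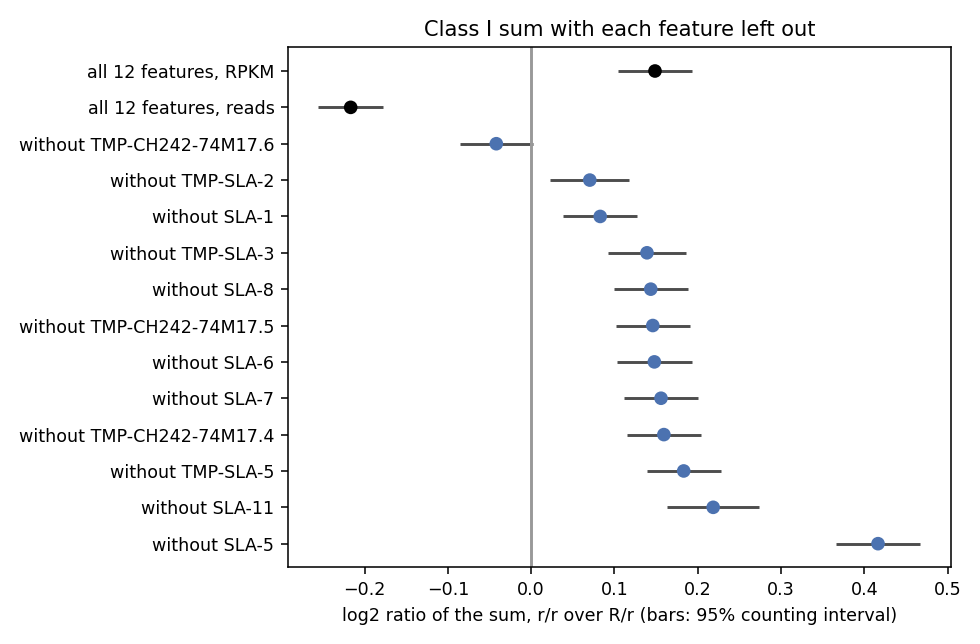
Log2 ratio of the class I sum, r/r over R/r, over all 12 features in RPKM and in reads (black) and with each feature left out (blue), with 95% counting intervals as bars. The RPKM sum of 0.15 moves to -0.04 without TMP-CH242-74M17.6 and to 0.42 without SLA-5, and the sum of the smallest matching reads is -0.22.

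B2M, the light chain shared by all class I molecules, was on 2 rows, and RefSeq also lists 2 genes of that name. The first row (ENSSSCG00000004682) had 260 RPKM in the heterozygous SV and 319 RPKM in the homozygous SV, a log2 ratio of 0.30 (0.24 to 0.36). The second (ENSSSCG00000004687) had 92.5 and 98.4 RPKM, a log2 ratio of 0.09 (-0.01 to 0.19). Both ratios were above 0, the second with an interval that included 0, and neither was near 2-fold. Summed, B2M had a log2 ratio of 0.24 (0.19 to 0.30), and the class I sum was 2.15 times the level of B2M in the heterozygous SV and 2.01 times in the homozygous SV. Among the features above 0 in each library, the first row of B2M was above 98.6% in the heterozygous SV and above 98.9% in the homozygous SV.

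TAPBP, the chaperone that bridges class I molecules and the transporter, was the one loading gene at a high level. TAPBP (ENSSSCG00000001507) had 68.4 RPKM in the heterozygous SV and 65.8 RPKM in the homozygous SV, a log2 ratio of -0.06 (-0.16 to 0.05). TAP1, one chain of the peptide transporter, had 3.83 and 3.30 RPKM on ENSSSCG00000020893 from 85 and 66 reads, a log2 ratio of -0.21 (-0.70 to 0.27). TAPBP, on a single row, was thus at 17.9 times the level of TAP1 in the heterozygous SV and 19.9 times in the homozygous SV. TAP1 had a second row at 0, and how reads were divided between its rows is not given. TAP2, the other chain, had 2.83 and 1.36 RPKM on ENSSSCG00000025173 from 53 and 23 reads, a log2 ratio of -1.05 (-1.83 to -0.32), with the interval reaching inside 2-fold. Its other row (ENSSSCG00000025593) had 0.386 and 0.456 RPKM from 16 and 17 reads. Both rows of TAP2 together had 3.21 and 1.82 RPKM, a log2 ratio of -0.82 (-1.41 to -0.23), below 2-fold.

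PSMB8 and PSMB9 encode subunits that replace their constitutive counterparts in the immunoproteasome, the form of the proteasome that interferon induces. PSMB8 (ENSSSCG00000028872) had 1.35 RPKM in the heterozygous SV and 1.71 RPKM in the homozygous SV from 7 and 8 reads, a log2 ratio of 0.34 (-1.31 to 2.04). PSMB9 had 0.448 and 0.0829 RPKM on ENSSSCG00000001463, from 6 reads and 1 read, and 0.385 and 0.854 RPKM on ENSSSCG00000001468, from 4 and 8 reads. The rows of PSMB9 differed in opposite directions, on reads too few to show a difference at this depth, and their sum was 0.833 and 0.937 RPKM. TAP1, TAP2, PSMB8 and PSMB9 were each on 2 rows in the table, although RefSeq lists 1 gene for each, side by side. A second row of TAP1 (ENSSSCG00000025618) and of PSMB8 (ENSSSCG00000026951) was listed at 0 in both libraries. Over the whole table, 57.6% of the 250 symbols on 2 rows had a row at 0 in both libraries, beside 10.7% of the 13952 symbols on 1 row, and how reads were divided between such rows is not given in the sources used here. The 4 genes together had 9.22 RPKM in the heterozygous SV and 7.76 RPKM in the homozygous SV, a log2 ratio of -0.25 (-0.65 to 0.15).

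None of the other genes of the pathway that were compared was at least 2-fold apart. Of the 8 chaperones and trimming enzymes of the endoplasmic reticulum, all were compared and 0 were at least 2-fold apart, with a median log2 ratio of 0.14 and 7 above 0. ERAP2, a peptidase that trims peptides, came nearest to it, with 2.12 RPKM in the heterozygous SV and 4.21 RPKM in the homozygous SV, a log2 ratio of 0.99 (0.62 to 1.37). TAPBPL, a relative of tapasin that edits peptides, had 7.88 and 10.9 RPKM, a log2 ratio of 0.47 (0.32 to 0.62). CALR, which holds the loading complex together, had 370 and 405 RPKM. The constitutive proteasome had 13 of 15 genes found and compared and 0 at least 2-fold apart, with 1053 and 1086 RPKM in sum, and PSME2, a subunit of the proteasome activator that interferon induces, had 46.0 and 51.6 RPKM. The constitutive proteasome list also holds subunits common to both forms of the proteasome, and PSMB5 was not found. The summed level therefore does not set the constitutive form against PSMB8 and PSMB9.

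Genes that control class I transcription showed no 2-fold difference either. Of 22 regulators 19 were found, among them not NLRC5, the activator of class I genes, and all 19 were compared and 0 were at least 2-fold apart, with a median log2 ratio of -0.02 and a range from -0.19 to 0.44. IRF1, a factor that drives class I genes under interferon, had 12.5 and 13.2 RPKM, and RFX5, part of the complex on the promoters of MHC genes, had 9.18 and 9.57 RPKM. Of 16 interferon-induced genes compared, 1 was at least 2-fold higher and 0 lower, with a median log2 ratio of 0.40 and 13 above 0. MX2, an antiviral GTPase, had 2.86 RPKM in the heterozygous SV and 11.0 RPKM in the homozygous SV, a log2 ratio of 1.94 (1.52 to 2.38). MX1 had 39.8 and 54.5 RPKM, and ISG15 had 22.0 and 30.2 RPKM. CXCL10 was lower, with 1.45 and 0.842 RPKM from 21 and 11 reads, but its log2 ratio of -0.78 (-1.98 to 0.34) had an interval that included 0. Their part in the class I values was not tested.

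Class I-like genes outside the series, which share the fold of class I but not its role in showing peptides to T cells, were compared for 7 genes, with 0 at least 2-fold apart. FCGRT, the receptor that recycles antibodies, had 208 and 202 RPKM, HFE, which acts in iron sensing, had 36.1 and 24.3 RPKM, and PROCR, the receptor of protein C, had 1.34 and 2.25 RPKM. MHC class II had 7 genes compared and 0 at least 2-fold apart, and SLA-DRA, the chain shared by DR molecules, had 64.3 and 68.8 RPKM. Of 30 other genes of the MHC region compared, 1 was at least 2-fold higher, MOG on 1 read and 4 reads, and 0 were lower, with a median of -0.08. The list covers the MHC region as a whole and not only genes next to class I. It stands beside a background of 3.99% and 6 of 12 in the class I series, a count that includes the clone-named features. The relatives in that series can share reads. Whether the class I values are particular to those genes within the region was not tested.

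**Figure D5:**
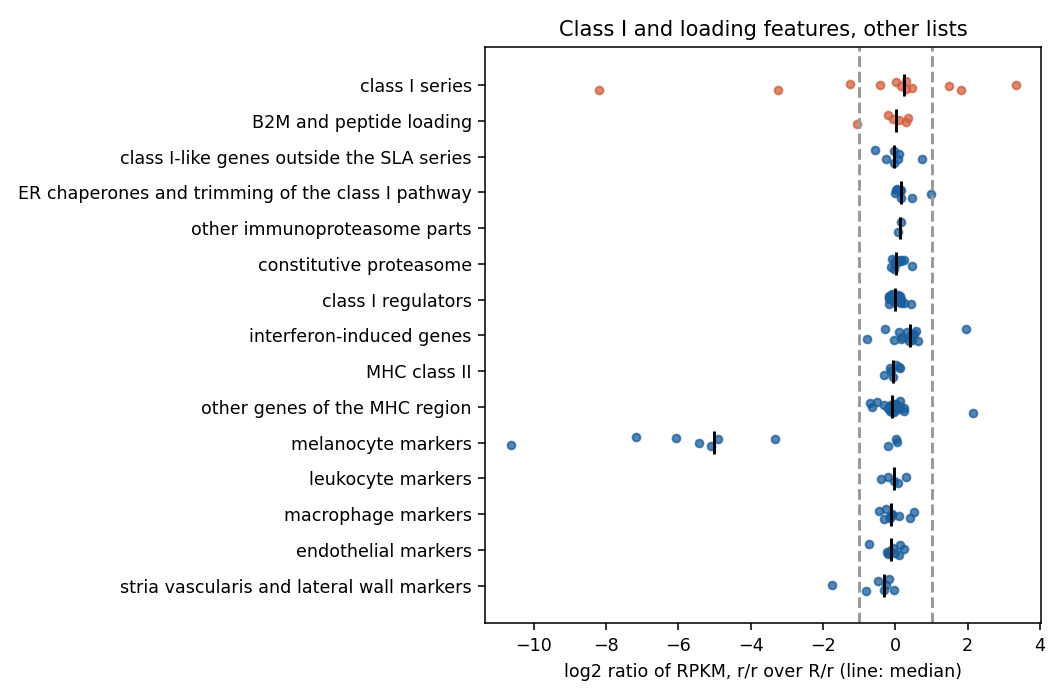
Log2 ratio of RPKM, r/r over R/r, of each compared feature of the class I series, of B2M with the loading genes (orange) and of the other gene lists (blue), with each list's median as a black line and 2-fold as dashed lines. The class I series spreads to both sides, the melanocyte markers lie to the left with a median of -5.01, and the regulators, proteasome and MHC class II genes lie within 2-fold.

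Markers of other cell types that the dissection can hold are given beside the class I values. Leukocyte markers summed to 22.7 RPKM in both SVs over 14 genes, with 0 of 5 compared at least 2-fold apart. NKG7 stood highest of them, with 9.37 RPKM in the heterozygous SV and 9.77 RPKM in the homozygous SV, and PTPRC had 3.66 and 3.58 RPKM. GZMB was at 0 and CD3E at 1 read in each library. Macrophage markers summed to 106 RPKM in the heterozygous SV and 99.0 RPKM in the homozygous SV with 0 of 11 compared at least 2-fold apart, and endothelial markers to 340 and 332 RPKM with 0 of 10. Melanocyte markers were lower, with 7 of 10 compared at least 2-fold lower and a sum of 345 RPKM in the heterozygous SV and 56.0 RPKM in the homozygous SV, of which KIT alone held 43.6 and 44.2 RPKM. Markers of the SV and lateral wall had 1 of 7 at least 2-fold lower, KCNJ10, a potassium channel of intermediate cells, with a log2 ratio of -1.75, but all 7 were below 0, with a median of -0.31 and a list sum of 9004 RPKM against 6504 RPKM. COCH, a matrix protein of the lateral wall, alone held 6826 and 4914 RPKM of that sum, a log2 ratio of -0.47. ATP1B2, a sodium pump subunit, had a log2 ratio of -0.81. The part of the lower melanocyte and lateral wall markers in the class I values was not tested.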

How the data were processed

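Cochlear SV RNA was sequenced in 1 Mitf R/r and 1 Mitf r/r library (100-bp paired ends). The authors aligned reads to Sscrofa10.2 with TopHat2 (2.0.7) and deposited an RPKM value per feature and library. The counting program, the annotation and the treatment of multiply mapped reads are not given in the sources used here. A further 2 unheaded columns, filled for 22 genes with differences and ratios of the libraries, were not used. Members and lists were chosen with earlier results of these data known, and every member is named.

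Log2 ratios of RPKM had no pseudocount, and 2-fold was the threshold. Where a list gene had several rows, the row with the highest mean RPKM was used. Library totals came from 736 features with equal reads (library ratio 1.11), and reads per feature were taken as the smallest integers matching its RPKM in each library at a whole length (within 0.0001 bp), found for 99.3% of 19347 features and all 21 members with reads. True reads and lengths may be multiples of these, which would make intervals narrower. The multiple could differ between features, and the ratios of summed reads could then differ in size and direction. Intervals were Clopper-Pearson (95%) for features and from the variance of the log ratio for sums. The steps were tested on simulated data. Alternatives were other scalings (median, upper quartile, TPM), pseudocounts, minimums, thresholds and sums, and leaving out single class I features other than TMP-SLA-5 and the highest, SLA-11, was added after seeing the data. RefSeq annotation of Sscrofa11.1 gave only names, biotypes and gene order. The work used scipy 1.17.1, pandas 2.3.3 and numpy 2.4.6 under Python 3.11.15, and figures matplotlib 3.10.9.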

Additional observations from a re-analysis of the deposited data

How the results depend on the processing

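The class I sum (log2 ratio 0.15) reversed to -0.22 as a sum of the smallest matching reads, to -0.034 without the clone-named features and to -0.042 without TMP-CH242-74M17.6. It moved outside its interval to 0.19 with median scaling and, with 1 feature left out, to 0.22 (SLA-11), 0.42 (SLA-5), 0.083 (SLA-1) and 0.070 (TMP-SLA-2), and the remaining 10 of 18 alternatives stayed inside it. The peptide loading sum moved from -0.08 to -0.25 without TAPBP. The count of all features at least 2-fold apart, 651, was 1483 with no minimum, 178 at a minimum of 5 RPKM, 317 with a pseudocount of 1 RPKM, 1771 at 1.5-fold and 105 by intervals. The count of members, 7, was 5 to 9 under the same alternatives. A pseudocount of 1 RPKM moved the log2 ratio of TMP-SLA-5 to -4.15 and of TMP-CH242-74M17.4 to -2.12, and of the 90 single-feature values 1 changed sign, that of SLA-11, from 0.017 to -0.018 with TPM scaling, inside its interval. No paired analysis was possible because each genotype had 1 library. Depth limits PSMB8 and PSMB9, with under 10 reads a row.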
